A study of Rattus norvegicus with 6 samples.

Results

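The AP-1 transcription factor subunits were examined in whole adrenal gland of the spontaneously hypertensive rat (SHR) and the Wistar-Kyoto rat (WKY). All probe sets named for Jund, Jun, Junb, Fos, Fosb, Fosl1, Fosl2 or Atf3 in the array's annotation table were taken, which gave 14 of the 8799 on the array, each named for 1 gene, against 4737 genes named in all. Jun had 4 probe sets, Fos 3, Junb and Fosl2 2 each, and Jund, Fosl1 and Atf3 1 each, while none carried the name of Fosb, so 7 of the 8 genes were measured. SHR is an inbred strain that develops high blood pressure, and WKY is the normotensive inbred strain set beside it. Each strain gave 3 adrenal samples on Affymetrix RG-U34A arrays, and strain is the 1 difference that the labels give. The labels do not say whether glands were pooled or came from separate animals, so the p-values reflect how these 6 samples vary, and that variation may be technical.

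AP-1 is a dimer of basic leucine zipper proteins, made of a Jun protein (Jun, Junb or Jund) paired with another Jun, with a Fos protein (Fos, Fosb, Fosl1 or Fosl2) or with an ATF protein such as Atf3. It binds DNA at the TPA response element and, with ATF partners, at the cyclic AMP response element. Fos, Junb and Jun are immediate early genes, whose transcripts rise within minutes of a stimulus and decay quickly, whereas Jund is transcribed more steadily in resting cells. In the adrenal gland, AP-1 subunits are known to respond to ACTH and angiotensin II in the cortex and to nerve stimulation of the chromaffin cells in the medulla.

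Each probe set has 1 deposited intensity on each array, in arbitrary units on a linear scale, and the array medians ran from 798.3 to 899.5. Markers of both parts of the gland were present. Of 7 cortex markers listed, 6 had a probe set under their name, and all 6 were bright enough to test. So were 7 of 7 medulla markers. The ratio of 3' to 5' signal of the hexokinase control, which rises as RNA degrades, reached 4.21 in SHR replicate 2, against 1.96 to 2.54 elsewhere. Both GAPDH control pairs of that array lay within the range of the others. They were at 0.95, against 0.90 to 1.14 elsewhere, and at 0.26, against 0.18 to 0.45. By the hybridization times in the instrument files, SHR replicate 1 and the 3 WKY arrays formed a first run and SHR replicates 2 and 3 a second. On SHR replicate 2 the recorded scan time precedes the recorded hybridization time, so these times, and each result by run, may not stand for the hybridization itself. In whole-gland RNA, fewer cells of a type and less RNA per cell cannot be told apart.

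Of the 14 AP-1 probe sets, 13 were bright enough to test between the strains. Under limma's test with Benjamini-Hochberg adjustment over all 5244 tested probe sets, 1 of the 13 was higher in SHR, that of Jund, and 1 was lower, a probe set of Jun, at an adjusted p under 0.05. Over all tested probe sets the same rule called 1.95%, with 1.07% higher and 0.877% lower. The 3 SHR arrays did not overlap the 3 WKY arrays in 3 of the 13 AP-1 probe sets and in 20.7% of all tested ones. The median difference was 0.04 over the 13 and -0.007 over all tested probe sets, on the log2(intensity + 181.5) scale used for every difference below. With SHR replicate 1 left out, and likewise each of the other 5 arrays, the same count of 2 was called.

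**Figure D1:**
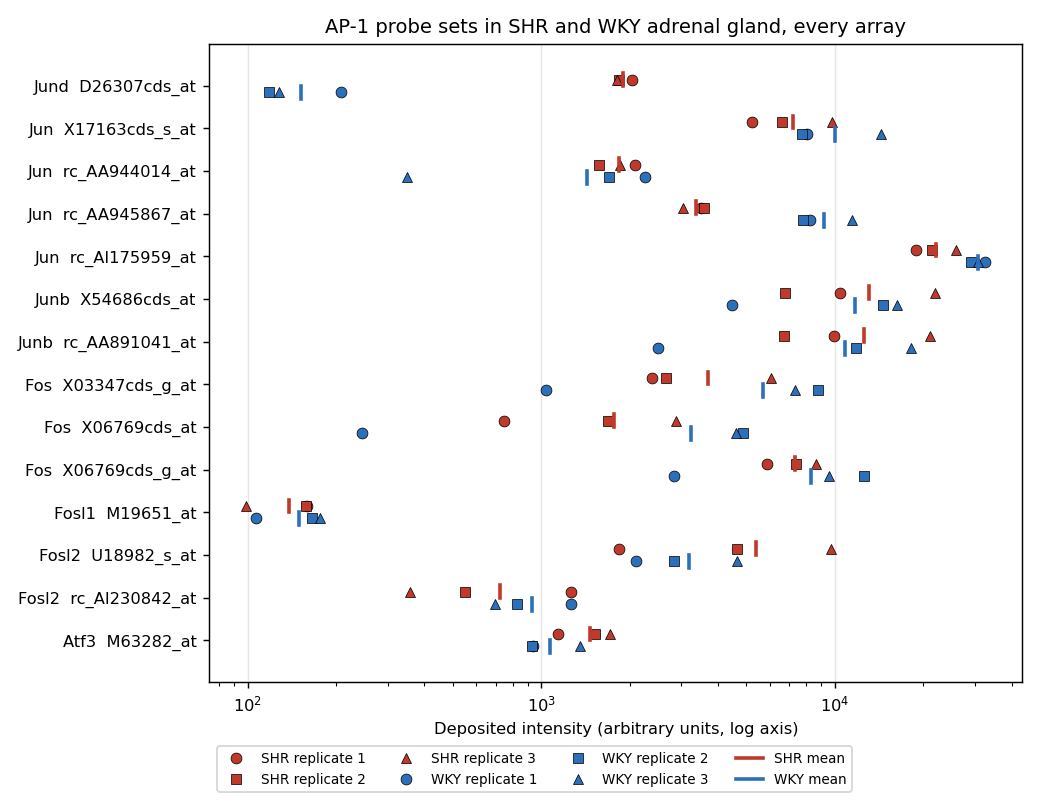
Deposited intensity (log axis, arbitrary units) of the 14 AP-1 probe sets on each array, SHR in red and WKY in blue, with a symbol per replicate and a vertical bar at each strain's mean. The Jund arrays of the strains lie far apart, at 1817.8 to 2031.8 in SHR and 118.5 to 208.3 in WKY, while WKY replicate 1 lies lowest in the 5 probe sets of Fos and Junb.

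Jund was the AP-1 gene with the widest difference between the strains. JunD is the Jun protein found in most resting cells, and it is known to restrain proliferation and to be bound by menin. Its probe set (D26307cds_at) read 2031.8, 1835.6 and 1817.8 in SHR replicates 1 to 3 and 208.3, 118.5 and 127.8 in WKY replicates 1 to 3. Every SHR array lay above every WKY array, and the spread within a strain was small beside the gap. The mean was 1895 ± 119 in SHR and 152 ± 49.4 in WKY (SD, n = 3 each). The difference was 2.65 ± 0.23 (SE, log2, limma adjusted p = 0.00135), or 6.27-fold on that scale. The WKY mean lay below the pseudocount of 181.5, so the size of the difference depends on it: it was 3.68 with a pseudocount of 1 and 1.58 with one of 726. The WKY mean was also near the means of the untested Fosl1 (138 in SHR, 150 in WKY), so Jund passed the brightness filter through its SHR arrays. With no filter Jund was called too (limma adjusted p = 0.00379).

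Jund was also called with the hybridization run as a block, at 2.74 (limma adjusted p = 0.0355), where 0.381% of all tested probe sets were called. That fit sets SHR replicate 1 against the 3 WKY arrays, since the second run held no WKY array. Within the first run alone the difference was the same 2.74 but did not pass (adjusted p = 0.203), where 0.0191% of probe sets were called. With the fluidics module as a block Jund stood at 2.55 (adjusted p = 0.0400), where the call rate was 0.877%. SHR replicate 1 and WKY replicate 3 were each alone on their module. Strain differences under the module block therefore rest on SHR replicates 2 and 3 and WKY replicates 1 and 2. Leaving out each array in turn gave differences from 2.58 to 2.77 and adjusted p from 0.00534 to 0.0184.

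The 250 bases before the transcription start of Jund and Junb are shown because the Jund probe set differed between the strains and those of Junb swung between arrays of a strain. They are RefSeq sequence of the GRCr8 assembly, from the BN strain and not from SHR or WKY, and 5 of the 8 genes matched the promoter table (Fosb, Fosl1, Fosl2, Jund and Junb). Capitals mark the cyclic AMP response element TGACGTCA, the CCAAT box and the TATA motif TATAA, each searched on both strands together with the TPA response element TGACTCA and the CArG box. Jund lies on the minus strand at chr16:18769772-18770021 and Junb on the plus strand at chr19:40080876-40081125, and both sequences run 5' to 3' toward the start.
Jund: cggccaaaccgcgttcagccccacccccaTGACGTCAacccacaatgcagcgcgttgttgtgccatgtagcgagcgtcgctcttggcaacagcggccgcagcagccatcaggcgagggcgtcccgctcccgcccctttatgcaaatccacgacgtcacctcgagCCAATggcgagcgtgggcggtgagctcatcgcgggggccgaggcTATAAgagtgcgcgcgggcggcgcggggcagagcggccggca
Junb: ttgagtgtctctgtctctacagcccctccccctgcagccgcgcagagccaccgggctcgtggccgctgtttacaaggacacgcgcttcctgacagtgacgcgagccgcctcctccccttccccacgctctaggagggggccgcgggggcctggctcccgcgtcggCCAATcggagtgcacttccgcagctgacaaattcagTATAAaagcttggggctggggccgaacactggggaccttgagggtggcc
The Jund sequence held 1 cyclic AMP response element, beginning 221 bases before the start, and 1.59% of the 33469 promoters in the table held one in the same 250 bases. Both genes held a CCAAT box, beginning 86 (Jund) and 85 (Junb) bases before the start, which 34% of promoters hold on either strand. Both also held the TATA motif, at 42 and 49 bases, which 24.0% hold. The TPA response element (4.05% of promoters) and the CArG box (1.5%) were in neither. These letters say nothing about binding in these glands.

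Jun encodes c-Jun, the main activating Jun protein and a target of the JNK kinases. Its 4 probe sets gave different pictures. The probe set rc_AA945867_at read 3499.5, 3591.7 and 3041.0 in SHR replicates 1 to 3 and 8244.4, 7765.5 and 11479.1 in WKY replicates 1 to 3. All SHR arrays lay below all WKY arrays, and it fell in SHR from 9163 ± 2020 to 3377 ± 295 (mean ± SD, n = 3 each), by 1.37 ± 0.18 (SE, log2, limma adjusted p = 0.00922). The call was lost when the run was a block, at -1.32 (adjusted p = 0.162), and with the fluidics module as a block, at -1.23 (0.0903). It held with each array left out, at -1.48 to -1.20 (adjusted p from 0.0195 to 0.0434).

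The brightest Jun probe set, rc_AI175959_at, read 18960.2, 21431.6 and 25840.4 in SHR and 32590.3, 29105.6 and 30679.7 in WKY. Here too the strains did not overlap, with SHR lower, but the difference of -0.49 ± 0.14 (SE) did not pass (limma adjusted p = 0.14, unadjusted p = 0.00697). The probe set built on the Jun coding sequence, X17163cds_s_at, read 5237.6, 6590.9 and 9764.7 in SHR and 8010.9, 7737.0 and 14314.8 in WKY. Its strains overlapped, since SHR replicate 3 lay above WKY replicates 1 and 2, and the difference was -0.46 ± 0.29 (adjusted p = 0.541). The fourth, rc_AA944014_at, read 2079.4, 1569.3 and 1854.7 in SHR and 2249.6, 1702.0 and 347.7 in WKY. WKY replicate 3 stood far below the other arrays there, and the difference was 0.58 ± 0.51 (adjusted p = 0.673), turning to -0.09 without that array. So 3 of the 4 Jun probe sets had a negative sign and 1 a positive one, and 1 of the 4 passed.

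**Figure D2:**
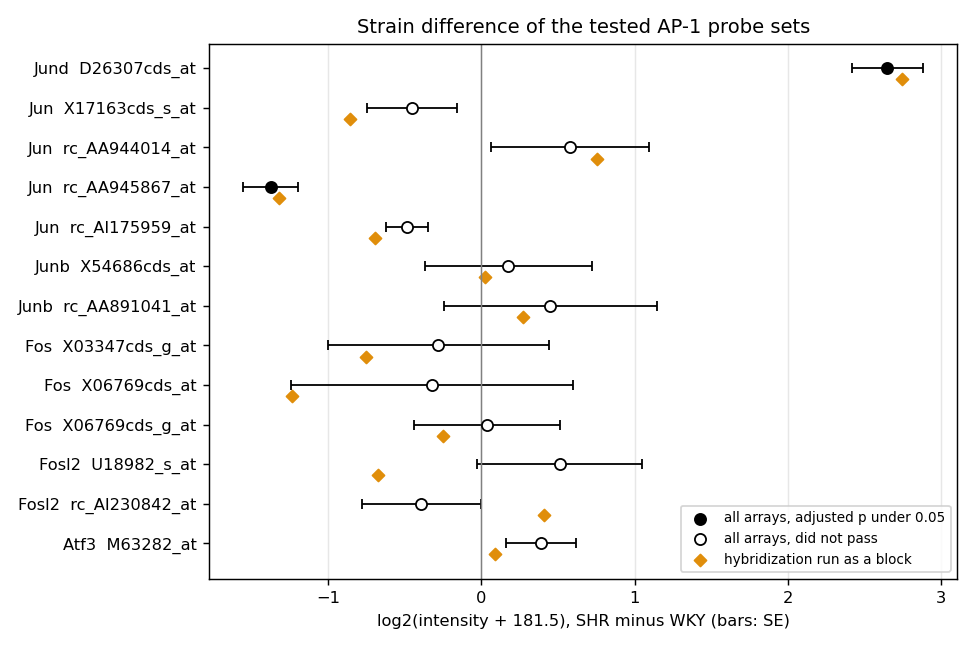
Difference between SHR and WKY in log2(intensity + 181.5) for the 13 tested AP-1 probe sets, with circles for the fit over all arrays, bars for its SE, filled circles for an adjusted p under 0.05, and diamonds for the fit with the hybridization run as a block. Jund (2.65) and the Jun probe set rc_AA945867_at (-1.37) are the filled circles, and the bars of the 3 Fos and 2 Junb probe sets cross 0.

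The Jun probe sets were then compared with each other within each array, which asks whether they give different strain differences. Set against the brightest probe set rc_AI175959_at, the probe set rc_AA945867_at stood at -2.64 ± 0.33 in SHR and -1.75 ± 0.30 in WKY (mean log2 difference ± SD, n = 3 each). The within-array differences did not overlap between the strains, running from -3.01 to -2.38 in SHR and from -1.96 to -1.40 in WKY. The gap between the strains was -0.89 ± 0.25 (SE), and it did not pass when limma was fitted over the 1168 such pairs of all genes (adjusted p = 0.364, unadjusted p = 0.00916). In that fit 0.257% of pairs were called. For rc_AA944014_at the gap was 1.06 ± 0.55 (adjusted p = 0.603), and for X17163cds_s_at it was 0.03 ± 0.28 (adjusted p = 0.978). A different strain response of the 4 Jun probe sets was therefore not shown, although their estimates ran from -1.37 to 0.58.

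All 6 pairs of Jun probe sets were also compared by an exact permutation test over the 6 arrays (two-sided), which with 3 against 3 cannot go below 0.10. The strains did not overlap in 4 of the 6 pairs, each with an exact p of 0.10 and 0.15 after Benjamini-Hochberg adjustment over the 6. The 6 pairs are built from 4 probe sets and so are not independent. How often pairs of other genes do not overlap was not computed, so this count does not show that the Jun probe sets differ. The widest gap, 1.95, lay between rc_AA944014_at and rc_AA945867_at, and WKY replicate 3 was the most distant array in it. In the remaining pairs the exact p was 0.90 (X17163cds_s_at against rc_AI175959_at) and 0.50 (rc_AA944014_at against X17163cds_s_at). The sources of rc_AA945867_at, rc_AA944014_at and rc_AI175959_at are expressed sequence tags, and where each lies along the Jun transcript was not analysed here.

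**Figure D3:**
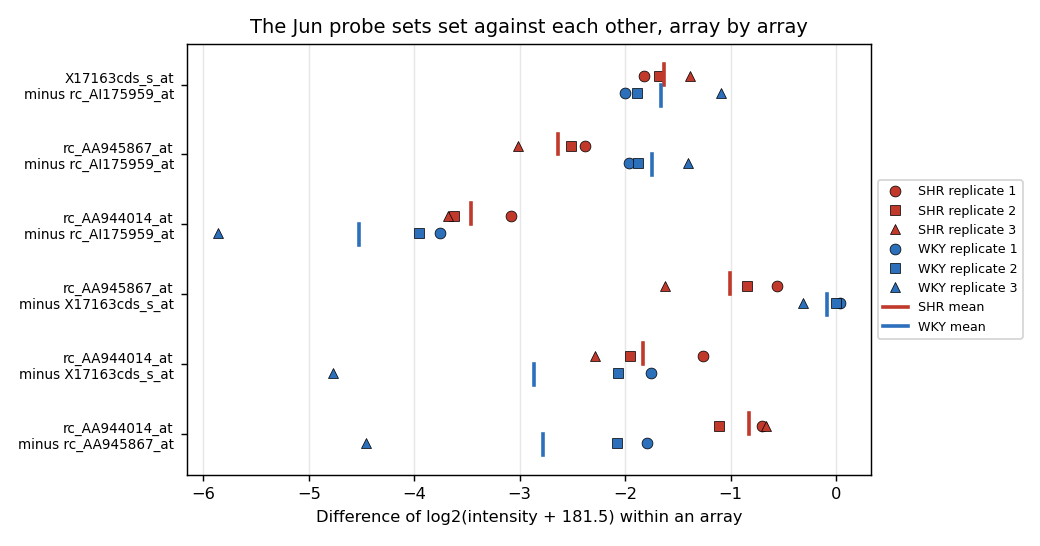
Difference in log2(intensity + 181.5) between each pair of Jun probe sets within an array, SHR in red and WKY in blue, with a symbol per replicate and a vertical bar at each strain's mean. In the second row the SHR arrays lie at -3.01 to -2.38 and the WKY arrays at -1.96 to -1.40, and WKY replicate 3 stands apart in each row with rc_AA944014_at.

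Junb encodes a Jun protein that activates transcription more weakly than c-Jun and can oppose it. Its probe set X54686cds_at read 10411.5, 6771.2 and 21900.4 in SHR and 4477.0, 14549.7 and 16241.9 in WKY. Its other probe set, rc_AA891041_at, read 9915.3, 6736.5 and 21159.7 in SHR and 2488.1, 11769.2 and 18124.3 in WKY. Both put the 6 arrays in the same order, from WKY replicate 1 at the bottom to SHR replicate 3 at the top, with the strains interleaved. The differences were 0.18 ± 0.55 and 0.45 ± 0.69 (SE, limma adjusted p = 0.923 and 0.830). Without WKY replicate 1 they were -0.40 and -0.37, and without SHR replicate 3 they were -0.28 and -0.0002, so either array turns both signs.

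Fos encodes the best known partner of the Jun proteins. Of its 3 probe sets, X06769cds_at read 743.6, 1691.2 and 2867.2 in SHR and 244.3, 4877.4 and 4610.3 in WKY, a 19.96-fold range over the 6 arrays. X06769cds_g_at, built on the same source record, read 5885.6, 7373.5 and 8614.4 in SHR and 2841.4, 12579.9 and 9527.4 in WKY. X03347cds_g_at, whose ID carries another accession than the annotation table gives for it, read 2389.2, 2658.8 and 6058.8 in SHR and 1039.9, 8727.7 and 7330.4 in WKY. All 3 gave the same order of arrays: WKY replicate 1 was lowest, the SHR arrays lay between, and WKY replicates 3 and 2 were highest. The WKY arrays thus held both ends of the range. The differences were -0.32 ± 0.92, 0.04 ± 0.48 and -0.28 ± 0.72 (SE, limma adjusted p = 0.916, 0.983 and 0.902). Without WKY replicate 1 they were -1.50, -0.59 and -1.20 and did not pass (adjusted p = 0.263, 0.319 and 0.277).

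**Figure D4:**
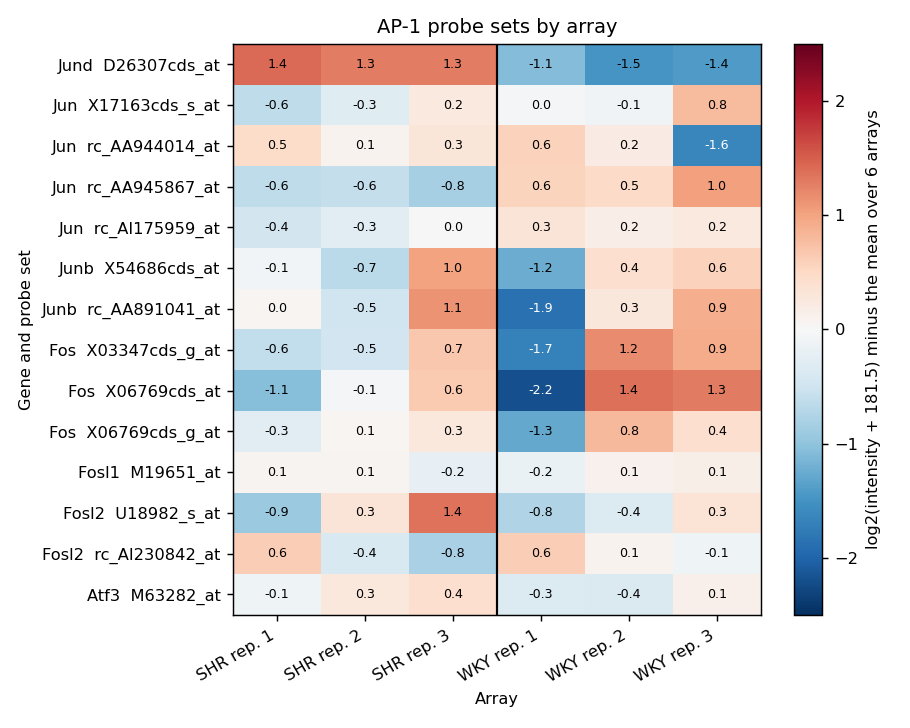
Each AP-1 probe set's log2(intensity + 181.5) on each array minus its mean over the 6 arrays, in colour and in figures (red above the mean, blue below), with a line between the strains. Jund splits by strain, the Fos and Junb rows share a low WKY replicate 1 (-2.2 for X06769cds_at), and the Fosl2 rows run opposite ways.

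Fosl1 and Fosl2 encode the Fos-related proteins Fra-1 and Fra-2, which appear later than Fos after a stimulus. Fosl1 (M19651_at) was dim on every array, at 98.7 to 159.0 in SHR and 106.8 to 176.7 in WKY, all below the pseudocount. Its mean log2 value over the arrays did not lie above the 40th percentile of probe sets, so it was left out of the test. With no filter it stood at -0.05 ± 0.17 (SE, limma adjusted p = 0.950). The Fosl2 probe set U18982_s_at read 1832.3, 4642.4 and 9700.7 in SHR and 2098.1, 2826.0 and 4659.1 in WKY. The other, rc_AI230842_at, read 1261.3, 547.9 and 357.2 in SHR and 1262.9, 828.8 and 694.4 in WKY. SHR replicate 3 was the highest array in the first and the lowest in the second, and SHR replicate 1 the lowest in the first and close to the top in the second. The differences were 0.51 ± 0.54 and -0.39 ± 0.39 (adjusted p = 0.724 and 0.709). Their signs turned when the run was a block, to -0.67 and 0.41. The gap between these probe sets in their strain difference, -0.90 ± 0.91, did not pass either (limma adjusted p = 0.775 over all pairs).

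Atf3, a stress-induced ATF protein that pairs with Jun proteins and often represses transcription, read 1136.2, 1526.4 and 1717.7 in SHR and 935.2, 926.6 and 1358.2 in WKY (M63282_at). WKY replicate 3 overlapped the SHR arrays. The difference was 0.39 ± 0.23 (SE, limma adjusted p = 0.50), and blocking by run gave 0.09.

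The subunits differed widely in how much they varied between arrays of a strain. The within-strain SD of Jund (0.157, on the log2 scale) lay at the 20.3rd percentile of all tested probe sets, but its WKY values lay near the pseudocount, which narrows them: with a pseudocount of 1 the SE of its difference was 0.36 and not 0.23. The SDs of the Jun probe sets rc_AI175959_at and rc_AA945867_at lay at the 23.4th and 42.0th percentile. Atf3 lay at the 53.6th. The Fos probe sets lay at the 96.5th to 99.9th percentile and the Junb probe sets at the 98.3rd and 99.5th. Altogether 7 of the 13 tested AP-1 probe sets lay above the 90th percentile: the 3 of Fos, the 2 of Junb, U18982_s_at of Fosl2 and rc_AA944014_at of Jun. For these the SE of a strain difference was 0.48 to 0.92.

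**Figure D5:**
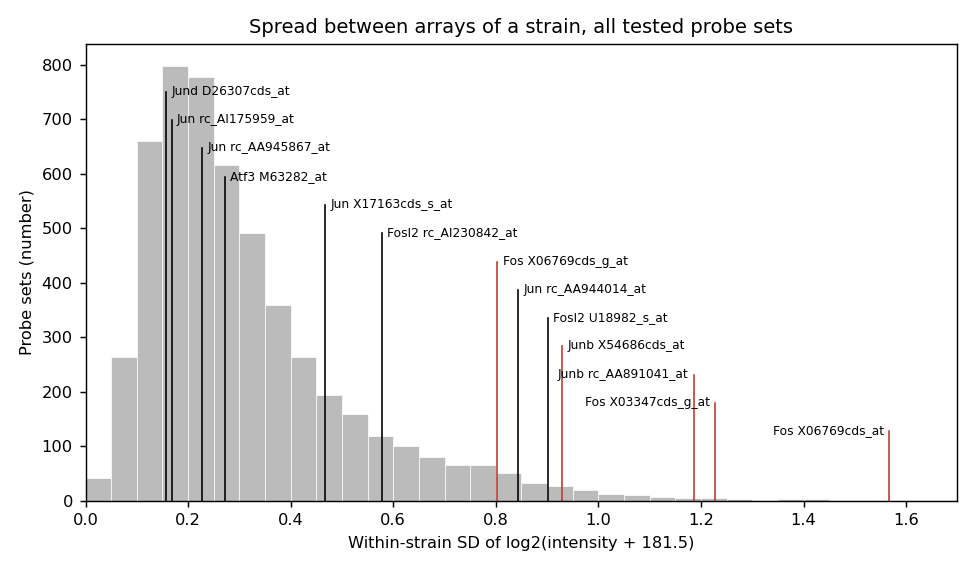
Histogram of the within-strain SD of log2(intensity + 181.5) over the 5244 tested probe sets (values above 1.7 in the last bin), with a vertical line for each tested AP-1 probe set, Fos and Junb in red. The lines of Jund (0.157) and the Jun probe set rc_AI175959_at (0.168) stand in the bulk, and the Fos probe set X06769cds_at (1.57) at the far right.

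Other early response genes were set beside them. Of 33 listed, 22 were tested by the brightest probe set of each gene, and limma called 0 of them (4 at an unadjusted p under 0.05), with a median of 0.20 against -0.01 over the 3144 genes tested. Of all those genes 1.65% were called and 13.0% had an unadjusted p under 0.05, the background for each list below. WKY replicate 1 was the lowest array in 11 of the 22 genes and in all 5 Fos and Junb probe sets, and in 21.7% of all tested probe sets, a count made after the values were seen. Nr4a1, an orphan nuclear receptor gene, read 38327.0, 56493.5 and 77272.6 in SHR and 5540.6, 29110.0 and 50340.0 in WKY (1.44 ± 0.70, adjusted p = 0.41). Egr1, a zinc finger gene induced with Fos, read 5043.3, 7981.9 and 10102.4 in SHR and 2104.6, 9306.8 and 13192.8 in WKY (0.20 ± 0.60, adjusted p = 0.92). Both genes were chosen after their values were seen. The genes of smallest p were Klf10 at -0.65 ± 0.16 (SE, adjusted p = 0.107), Id2 at -0.88 ± 0.33 (0.279) and Myc at -0.62 ± 0.25 (0.317).

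The proteins that pair with AP-1 subunits and the kinases that act on them gave no call. Of 26 listed basic leucine zipper partners 12 were tested, with 0 called by limma and 3 at an unadjusted p under 0.05 (median 0.02), where 13.0% of all genes reached that p. They were Maf at -0.65 (adjusted p = 0.125), Nfe2l2, the antioxidant regulator Nrf2, at -1.05 (0.224), and the clock output gene Dbp at 0.55 (0.281). Of 32 kinases and Ras genes 12 were tested, with 0 called and 4 at an unadjusted p under 0.05 (median 0.21). Map2k6, an activator of p38, stood at 0.59 (0.224), Mapk9, which encodes JNK2, at 0.53 (0.224), and Map3k1, which acts above JNK, at -0.52 (0.311). Of 20 regulators and cofactors 9 were tested, with 0 called and 2 at an unadjusted p under 0.05 (median -0.17). Nfkb1 was at -0.57 (0.193), and the ERK phosphatase genes Dusp6 and Dusp5 at 1.33 (0.224) and 0.22 (0.656). Dusp6 read 3407.5, 4970.7 and 8319.4 in SHR and 930.8, 2546.5 and 3061.0 in WKY, with no overlap and WKY replicate 1 again lowest. It passed with the fluidics module as a block (1.93, limma adjusted p = 0.0400) and stood at 0.74 (0.792) blocked by run.

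Of 31 genes that textbooks give as AP-1 targets, 20 were tested, and 1 rose, 1 fell and 18 did not pass (median -0.14), where 1.65% of all genes were called. At an unadjusted p under 0.05 there were 8 of the 20, against 13.0% of all genes. Spp1, which encodes osteopontin, rose from 1558 ± 285 in WKY to 6461 ± 810 in SHR (mean ± SD, n = 3 each; 1.94 ± 0.18, limma adjusted p = 0.00195). Lgals3, which encodes galectin-3, fell from 3383 ± 8.41 to 1490 ± 177 (-1.10 ± 0.16, adjusted p = 0.0140). Blocked by hybridization run they stood at 1.77 (adjusted p = 0.0579) and -1.08 (0.199). Lgals3 also lost its call with the module as a block (0.146) and with any array but SHR replicate 3 left out (adjusted p from 0.0515 to 0.0790). Pdyn, the dynorphin precursor, rose in a probe set that was not its brightest, by 1.79 ± 0.13 (0.000651), while its brightest was at 0.69 (0.102). Blocked by run, the former stood at 1.74 (limma adjusted p = 0.0294) and the brightest at 0.78 (0.409). Hmox1, haem oxygenase 1, was at 0.71 (0.0755) and Plaur, the urokinase receptor, at 1.21 (0.147). Some of these genes were known to differ here when the list was drawn up, so its count is no separate evidence.

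Markers of other cell types were set beside Jund and Jun, by the brightest probe set of each gene. Of 6 fibroblast and capsule markers, all tested, 4 were called lower in SHR (Col1a1, Col1a2, Col3a1 and Fn1), where 1.65% of all genes were called in either direction. Dcn (-1.45, limma adjusted p = 0.0786) and Pdgfra (0.04) did not pass. The summed intensity of all 6 ran from 14255 to 22957 in SHR and from 39685 to 57642 in WKY, with no overlap. Summed medulla markers ran from 36049 to 45936 and from 48872 to 57859, with a median difference of -0.57 over the 7 genes, which did not move alike. Dbh, the noradrenaline-forming enzyme, was called lower (-1.29). Th, the first enzyme of that pathway, and Chgb, a granule protein gene, stood at -0.02 and -0.08. Pnmt (-0.57), Slc18a1 (-0.82) and Npy (-0.58) had the sign of Dbh, and Slc18a2, a vesicle transporter gene, stood at 0.91. None of these other 6 genes passed. Summed smooth muscle markers (3 of 5 tested) ran from 7229 to 8384 and from 4144 to 6386, a gap made by Acta2, which was called higher (1.34), while Tagln (0.14) and Myh11 (-0.14) overlapped between the strains. Summed cortex markers overlapped, at 236448 to 358569 and 263454 to 394210, with 0 of 6 called. Summed leukocyte markers overlapped too, with Cd74 called lower (-1.76) and Ptprc (0.05), Cd14 (-0.10) and Lyz2 (-0.06) not passing. So did those of fat cells, at 27109 to 28198 and 27923 to 50731, and Lep alone made up 16176.9 to 18381.1 of each sum. Among the fat cell markers Cfd was called lower (-2.00), beside the uncalled Fabp4 (-1.52), Lep (0.004) and Lpl (0.38). Blocking by run ended all 8 of these calls (limma adjusted p from 0.118 to 0.391). None of the tested markers was listed at 0 on any array, and the part of these cells in the Jund and Jun results was not tested.

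The tested genes whose arrays ran most like each called AP-1 probe set were ranked by the root mean square difference of centred log2 values over the 6 arrays. For Jund they were Akr1c3 (0.29), an aldo-keto reductase gene, Sfrp4 (0.32), a secreted Wnt antagonist gene, and Spp1 (0.40), against a median of 1.35 over all tested probe sets. For the Jun probe set rc_AA945867_at they were Sfxn3 (0.09), a mitochondrial carrier gene, Gpc3 (0.17), a proteoglycan gene, and Ucp2 (0.20), a mitochondrial uncoupling protein gene, against a median of 0.75. The Sfxn3 probe set read 388.9, 437.6 and 392.3 in SHR and 1118.9, 1173.2 and 1569.5 in WKY. These genes were picked for their likeness to a called probe set, so their own split by strain follows from that choice and was not tested.

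None of the genes tested beside Jund and Jun passed. By gene order in GRCr8, the 3 tested genes on either side on chromosome 16 were Kcnn1, Rab3a, Pde4c, Kxd1, Comp and Homer3, at -0.21 to 0.34 (limma adjusted p from 0.504 to 0.955). Around Jun on chromosome 5 the 6 were Rps6, Cdkn2b, Plaa, Fggy, Cyp2j3 and Nfia, at -0.60 to 0.58 (adjusted p from 0.233 to 0.903).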

How the data were processed

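Adrenal RNA of 3 SHR and 3 WKY samples was hybridized to single-colour Affymetrix RG-U34A arrays, and samples were grouped and numbered by their titles. The values the authors deposited are linear intensities, 1 per probe set and array, with nothing below 0. What software made them is not given in the sources used here. Trimmed means (2% off each end) ran from 2503.64 to 2503.93, so the arrays were already scaled alike and the values were used as deposited, and the number of arrays limits the precision. An instrument settings file deposited with each array gave other values, the hybridization time (runs set apart by a gap over 60 minutes) and the fluidics module.

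After 59 control probe sets were left out, log2(intensity + 181.5) was taken, the pseudocount being the 20th percentile of values above 0, so folds of dim probe sets are understated. Of 8740 probe sets, 5244 with a mean above the 40th percentile were tested with limma 3.58.1 (lmFit, eBayes with intensity trend, R 4.3.3), two-sided, with Benjamini-Hochberg adjustment and a threshold of 0.05. For 881 genes with several tested probe sets, each was set against the brightest per array and fitted the same way without trend (1168 pairs). Exact permutation tests used scipy 1.17.1. The steps were tested on simulated data.

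Named were all AP-1 probe sets and, from each list, called probe sets, the 3 genes of next smallest p, and the 3 genes most like each called AP-1 probe set. Others are said to be chosen after their values were seen. The members, lists and tests were chosen with earlier results of these data known. Symbols came from the array's annotation table, updated through RefSeq (GRCr8). The alternatives were 2 scalings, pseudocounts of 1 and 726, no filter and one at the 60th percentile, eBayes without trend or robust, blocks for replicate number, run and module, the first run alone, and each array left out.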

Additional observations from a re-analysis of the deposited data

How the results depend on the processing

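Jund kept its sign in all 17 alternatives in which it was tested and its call in 16, and the Jun probe set rc_AA945867_at kept its sign in 18 and its call in 15. The 2 AP-1 calls became 1 with the filter at the 60th percentile, which left Jund out, 1 with the run block, 1 with the module block and 0 in the first run alone. The 102 calls over all probe sets became 60 with no intensity trend, a fit that uses all arrays. The count was 53 with the replicate block, 20 with the run block and 46 with the module block. With 1 array left out it was 38 to 59. Apart from the fit with no trend, these fits had fewer arrays or degrees of freedom. Why each count fell was not tested. The replicate numbers gave no clear sign of pairing the samples, with correlations of deviations of 0.0009, 0.01 and 0.07 between samples of the same number. SHR replicate 1 was nearest WKY replicate 2, while the highest value, 0.07, was that of SHR replicate 3 with WKY replicate 3. So few arrays cannot settle whether samples were paired. Under the replicate block 2 AP-1 probe sets stayed called, while Lgals3 was lost (limma adjusted p = 0.0570).

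Signs turned in AP-1 probe sets that had not passed. With the module block the values were 0.027 for X17163cds_s_at and -0.18 for rc_AA944014_at of Jun, 0.35 for X03347cds_g_at and 0.70 for X06769cds_at of Fos, and 0.31 for the gap of X06769cds_at to X06769cds_g_at. With the run block and in the first run they were -0.25 for X06769cds_g_at, -0.67 and 0.41 for U18982_s_at and rc_AI230842_at of Fosl2, 1.09 for the gap between those, and -0.16 for X17163cds_s_at of Jun against rc_AI175959_at. With 1 array left out the ranges were -0.094 to 1.01 for rc_AA944014_at, -0.40 to 0.56 and -0.37 to 1.02 for Junb (X54686cds_at, rc_AA891041_at), -1.20 to 0.24, -1.50 to 0.29 and -0.59 to 0.45 for Fos (X03347cds_g_at, X06769cds_at, X06769cds_g_at), -0.044 to 1.10 for U18982_s_at and -0.14 to 0.32 for that Jun gap. These fits draw on different arrays: the module block on SHR replicates 2 and 3 and WKY replicates 1 and 2, and the run block on SHR replicate 1 and all WKY arrays. Why those arrays differ was not tested. Over the named probe sets and pairs, direction and call were kept in 678 other cases, the call was lost in 38 and gained in 2, both for Dusp6 (module block, and replicate block with adjusted p = 0.0486).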

Other observations

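Among the early response genes outside AP-1, those of the Id family, which encode inhibitors of basic helix-loop-helix factors, all had a negative sign in SHR, and none passed. Id1 was at -0.55 ± 0.24 (SE, log2, limma adjusted p = 0.36) and Id3 at -1.13 ± 0.54 (0.41). Id3 read 3491.5, 4031.8 and 12058.5 in SHR and 6361.7, 13728.8 and 21590.4 in WKY. The orphan receptor genes Nr4a2 and Nr4a3 had a positive sign, at 1.10 ± 0.67 (0.51) and 1.27 ± 0.62 (0.41) by their brightest probe sets, but the signs turned to -0.18 and -0.094 with the hybridization run blocked. Nr4a3 read 4184.4, 13519.6 and 23699.9 in SHR and 3082.8, 3228.9 and 8909.0 in WKY. In both of these probe sets SHR replicate 3 was the highest array and WKY replicate 1 the lowest, as in Junb. The other tested Nr4a3 probe set stood at 0.27 ± 0.52 (0.86), with WKY replicate 3 as its highest array. It kept its sign with the run blocked (0.18). These genes were chosen after their values were seen.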
